A study of Mus musculus with 35 samples.

Results

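The miR-302 and miR-367 cluster was followed in mouse liver after a single dose of the mutagen N-ethyl-N-nitrosourea (ENU). Its members were all assays of a real-time PCR array named for a miR-302 or miR-367 miRNA, whatever the letter or arm. There were 4 such assays among the 376 miRNA assays of the array: mmu-miR-302a*, mmu-miR-302b, mmu-miR-302c* and mmu-miR-302d, written here without the prefix. No assay was named for miR-367, and none for the guide strands of miR-302a and miR-302c, the partners of miR-302a* and miR-302c*. The cluster was chosen by the expression of miR-302c*, which was lower at post-treatment days (PTDs) 3, 7 and 15 than in the controls, so its values at these 3 PTDs are given as a description with no test. The question was whether the other 3 assays of the cluster moved with it.

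Livers of 35 female Big Blue transgenic mice were measured, 1 array per mouse. These mice carry a shuttle vector of the bacteriophage lambda, with bacterial reporter genes in which mutations can be scored. All were 6 months old when given a single intraperitoneal injection, of ENU at 120 mg/kg or of its solvent, dimethylsulfoxide (DMSO). ENU-treated mice were sacrificed at PTDs 1, 3, 7 and 15 (5 mice each) and at PTDs 30 and 120 (4 mice each), and the control group held 7 DMSO-treated mice, 3 labelled day 1 and 4 labelled day 30. No control was labelled day 120, so mice at PTD 120 were also older than the controls, and age and treatment cannot be told apart there. Each assay had 1 well per array, and each value therefore rests on a single PCR reaction per mouse. The RNA came from whole liver pieces, so fewer cells with a miRNA and less of it per cell cannot be told apart.

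The miR-302 and miR-367 cluster is a polycistronic miRNA gene: 1 primary transcript holds several hairpins, and each hairpin can give a guide strand and a star (passenger) strand. It is known for its high expression in embryonic stem cells and induced pluripotent cells, where its guide strands support self-renewal, and it is largely silent in differentiated tissues. Guide strands that share the bases of the seed, the stretch that pairs with target mRNAs, are expected to share targets, whereas a star strand has a seed of its own. The clustered miR-290 family carries a closely related guide seed and is the other main miRNA cluster of mouse embryonic stem cells.

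The mature strands that the 4 assays detect are shown because they differ in arm and seed. They were taken from RefSeq (GRCm38.p6) and are written from the 5′ end, with the seed (bases 2 to 8) in capitals.
miR-302c* (miR-302c-5p): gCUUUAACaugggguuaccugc
miR-302a* (miR-302a-5p): aCUUAAACgugguuguacuugc
miR-302b (miR-302b-3p): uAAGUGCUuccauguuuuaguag
miR-302d (miR-302d-3p): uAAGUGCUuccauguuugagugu
Thus 2 of the 4 assays were for star strands with different seeds, and the other two were for guide strands with the same seed. The guide strands miR-302b and miR-302d had the same base at 20 of 23 positions and differed by U18G, A22G and G23U (miR-302b base first, positions from 1 at the 5′ end). Whether these assays detect each other's target was not tested. The star strands miR-302c* and miR-302a* had the same base at 15 of 22 positions, with U5A as the difference within the seed.

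The array had no assay for the guide strands of miR-302a and miR-302c, the star strands of miR-302b and miR-302d, or either strand of miR-367. Of these, 4 are shown to set out what was not measured.
miR-302c-3p: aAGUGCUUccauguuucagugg
miR-302b-5p: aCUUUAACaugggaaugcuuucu
miR-302d-5p: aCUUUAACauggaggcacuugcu
miR-367-3p: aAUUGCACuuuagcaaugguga
The seed of miR-302c* was that of the star strands of miR-302b and miR-302d, from which it differed at 6 and 5 of 22 positions. Neither of these star strands was on the array, so no assay of the cluster shared the seed of miR-302c*. In the reference the 5 hairpins lie on the plus strand of chromosome 3 within 580 bases, chr3:127545228-127545807, in the order Mir302b, Mir302c, Mir302a, Mir302d and Mir367. This stretch lies within the span of Larp7 (chr3:127536714-127553349), a gene for an RNA-binding protein.

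In the control livers miR-302c* gave the earliest signal of the cluster, and the other 3 assays gave late signals. The Ct is the PCR cycle at which fluorescence crosses a fixed threshold, on a log2 scale on which a lower Ct stands for more RNA. With the lowest control mean as rank 1, miR-302c* had a Ct of 26.9 ± 0.525 (SD, n = 7) and ranked 123 of 376. miR-302b had a Ct of 30.3 ± 1.08 (rank 223), miR-302a* 33.1 ± 1.80 (rank 341) and miR-302d 33.3 ± 1.16 (rank 348). The star strand of miR-302c was thus the only one of the 4 with a control mean Ct below the array median of 29.1. Levels of different assays also depend on how well each primer pair amplifies, so this order is one of signals and not of molecules.

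For context, hepatocyte markers led the array, with miR-122, miR-192 and miR-194 at control mean Cts of 14.2 to 17.2 and ranks of 1 to 5. Markers of blood, red cells and endothelium ranked 8 to 151, and those of neurons and muscle 164 to 366. None of the 140 wells of the 4 cluster assays was listed as Undetermined, against 15 of the 13160 miRNA wells overall. The Ct was above 35 in 5 of 35 arrays for miR-302a* and 2 of 35 for miR-302d, and in none for miR-302b and miR-302c*. The spread between replicates was smallest for the earliest signal: the control SD of expression was 0.505 for miR-302c* and 1.46, 2.11 and 1.42 for miR-302b, miR-302a* and miR-302d, against a median of 1.10 over the 163 assays with a control mean Ct above 30.

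Expression was given as -ΔCt, the negative Ct of an assay after subtraction of the array's mean Ct over 4 reference RNAs (U6, snoRNA142, snoRNA202 and snoRNA251). It is a log2 scale, on which a higher (less negative) value stands for more RNA. In the controls miR-302c* ranged from -5.60 to -4.22, with a median of -5.18. At PTD 1 its 5 values were -4.53, -5.61, -5.18, -6.06 and -4.98. The mice at PTD 1 overlapped the controls, although 2 of 5 lay below all 7 of them, 1 only just (-5.61 against -5.60).

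At PTD 3 the values of miR-302c* were -5.57, -5.09, -9.52, -8.05 and -9.14. They fell into a pair at the control level and 3 values at least 2 log2 units below every control. The lowest, -9.52, was that of replicate 3, whose deposited Ct values are not those of the study's list. At PTD 7 the values of miR-302c* were -8.06, -9.12, -8.79, -9.49 and -7.82, and at PTD 15 they were -9.53, -7.91, -9.93, -10.2 and -6.91. All 10 mice at these PTDs lay below all 7 controls, as was the case for 3.46% of the 376 assays at PTD 7 and 1.86% at PTD 15.

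At PTD 30 the values of miR-302c* were -4.19, -5.05, -4.06 and -4.95, and at PTD 120 they were -4.81, -4.15, -4.29 and -5.10. All 8 mice lay above the control mean of -5.15, within or just above the control range. The level thus had 2 ranges: near or above that of the controls at PTDs 1, 30 and 120, and well below it at PTDs 7 and 15, with PTD 3 divided between them.

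**Figure D1:**
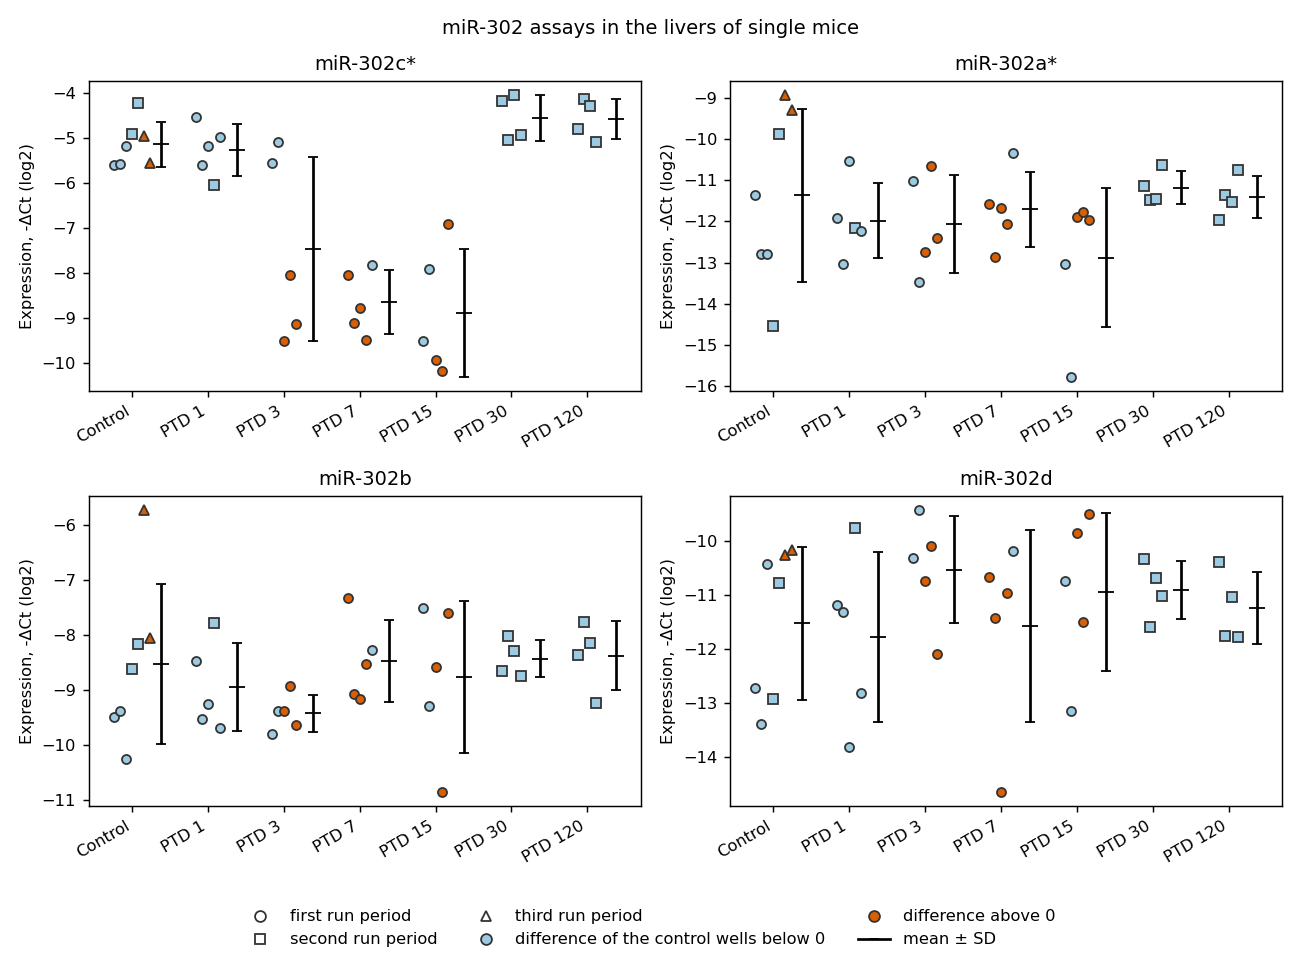
Expression (-ΔCt, log2 scale) of the 4 cluster assays in each mouse, by group. Shapes stand for run periods, colours for the sign of the difference of the reverse transcription control wells, and bars for the mean ± SD. For miR-302c* the mice at PTDs 7 and 15 lie between -10.2 and -6.91, below all controls, while for the other 3 assays the groups overlap.

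As a description, the mean of miR-302c* differed from that of the controls by -2.33, -3.51 and -3.74 at PTDs 3, 7 and 15 on the log2 scale, that is 5.01-, 11.4- and 13.4-fold lower. A differentially expressed miRNA (DEM) of the study had a p under 0.01 without adjustment and a fold change above 2. These thresholds called 0.798%, 7.45% and 4.79% of the 376 assays lower at these PTDs. The PTDs were chosen for miR-302c*, so no call is made for it here.

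At the other PTDs, which the choice did not use, miR-302c* did not pass the test. The difference was -0.12 ± 0.37 (log2, SE, n = 5 against 7) at PTD 1, with an adjusted p of 0.945 in limma and an exact permutation p of 0.701. It was 0.59 ± 0.36 at PTD 30 (n = 4 against 7, adjusted p = 0.444, exact permutation p = 0.1) and 0.56 ± 0.35 at PTD 120 (adjusted p = 0.487, exact permutation p = 0.106). The median of all 376 assays was 0.54 at PTD 30 and 0.46 at PTD 120, close to these values. Against the 2 controls run in the same period, the differences of miR-302c* were 0.0073 at PTD 30 and -0.020 at PTD 120.

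None of the other 3 assays of the cluster was a DEM at any PTD by limma, and none had an unadjusted p under 0.05 by limma or the exact permutation test. These thresholds called, in either direction, 1.33%, 2.13%, 9.84% and 11.4% of all assays at PTDs 1, 3, 7 and 15, and 1.6% and 1.33% at PTDs 30 and 120. This share depended on the controls: with only the 3 controls that shared a run period with these mice, 30, 124 and 152 of the 376 assays were called at PTDs 3, 7 and 15, in place of 8, 37 and 43. None of the 3 cluster mates was among them. The adjusted p of these 3 assays lay between 0.322 and 0.990 over the 6 PTDs.

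**Figure D2:**
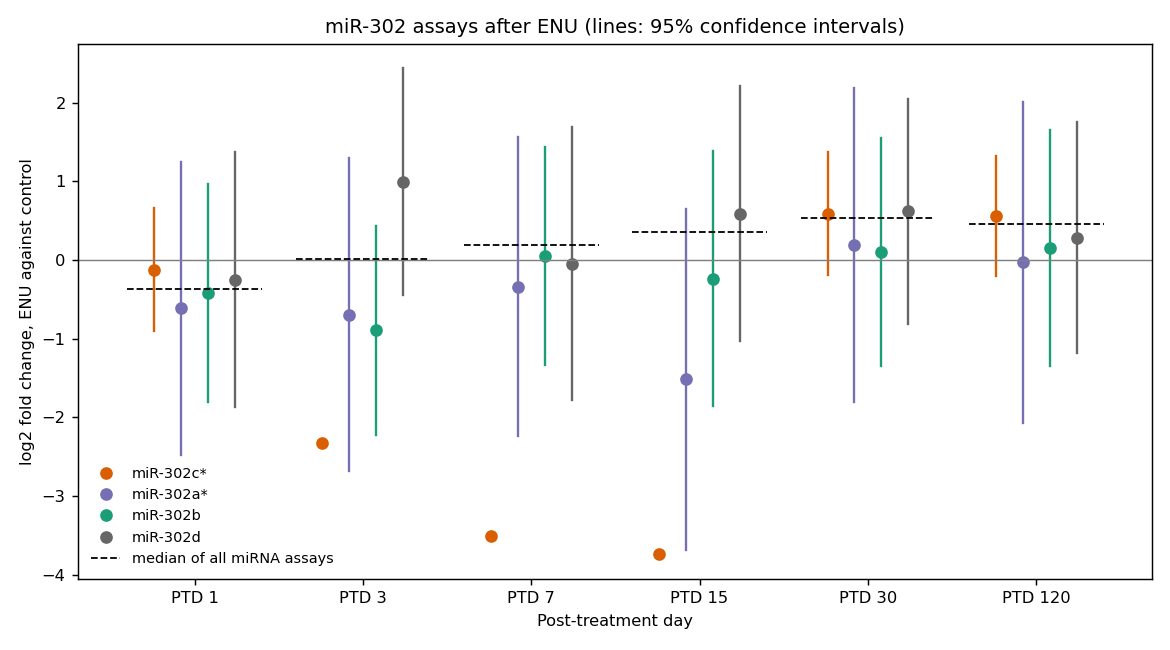
Difference in expression between each ENU group and the 7 controls (log2 fold change) for the 4 cluster assays by PTD. Lines are 95% confidence intervals, left out for miR-302c* at PTDs 3, 7 and 15, and dashed marks are medians of all 376 assays. The intervals of miR-302a*, miR-302b and miR-302d include 0 at every PTD.

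miR-302b, a guide strand and the second earliest signal of the cluster, ranged from -10.3 to -5.73 in the controls, with a median of -8.62. At PTD 7 its values were -7.33, -9.08, -9.16, -8.53 and -8.27, all within the control range. At PTD 15 they were -7.51, -9.28, -8.58, -10.9 and -7.60, with 1 mouse below every control. These are the PTDs at which miR-302c* was lowest, and miR-302b straddled the control mean of -8.53 at both.

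The difference of miR-302b was 0.05 at PTD 7, with a 95% confidence interval of -1.33 to 1.44 (limma, adjusted p = 0.980, exact permutation p = 0.939). At PTD 15 it was -0.24, with an interval of -1.85 to 1.38 (adjusted p = 0.840, exact permutation p = 0.789). Both intervals lie above the difference of miR-302c* at the same PTDs. Those values of miR-302c* chose the cluster, so this is a description with no test. The values of miR-302b depended on the controls. Against the 3 controls run in that period they were 1.24 at PTD 7 and 0.95 at PTD 15. Against the 4 labelled day 30 they were -0.83 and -1.12, and none of these passed the thresholds. The lowest mean of miR-302b was at PTD 3, with values of -9.80, -9.37, -9.37, -8.93 and -9.64, all 5 below the control mean. That difference, -0.90 ± 0.62 (SE), did not pass the test (adjusted p = 0.699, exact permutation p = 0.218). Against the 4 controls labelled day 30 alone it was -1.78, past the thresholds, and against the 3 labelled day 1 alone it was 0.29. At PTDs 1, 30 and 120 its differences were -0.42, 0.10 and 0.15.

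miR-302d has the seed of miR-302b and ranged from -13.4 to -10.2 in the controls, with a median of -10.8. At PTD 7 its values were -10.7, -11.4, -14.6, -11.0 and -10.2, and at PTD 15 they were -10.7, -13.1, -9.84, -11.5 and -9.49. A single mouse at PTD 7 was below every control, and 2 mice at PTD 15 were above every control. The differences were -0.05 (95% confidence interval -1.78 to 1.69, adjusted p = 0.989, exact permutation p = 0.963) and 0.59 (-1.04 to 2.21, adjusted p = 0.618, exact permutation p = 0.491).

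The highest mean of miR-302d was at PTD 3, where its values were -10.3, -9.43, -10.7, -10.1 and -12.1. That difference of 0.99 ± 0.67 (SE), higher in 4 of 5 mice than the control mean, did not pass the test (limma, adjusted p = 0.675, exact permutation p = 0.206). The value was 1.65 against the 3 controls run in that period and 2.00 with run period as a block, also not past the thresholds. At PTDs 1, 30 and 120 the differences of miR-302d were -0.25, 0.62 and 0.29. Both guide strands with the same seed thus had wide intervals around 0. At PTD 3 their means lay on opposite sides of the 7 controls, but not with the 3 controls of that period or with run period as a block, where miR-302b was at 0.29 and 0.31.

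miR-302a* is, like miR-302c*, a star strand, and it spread most among the controls, from -14.5 to -8.93 with a median of -11.4. At PTD 7 its values were -11.6, -12.9, -11.7, -12.1 and -10.3. At PTD 15 they were -13.0, -15.8, -11.9, -11.8 and -12.0. All 5 mice at PTD 15 lay below the control mean, yet 4 of the 5 lay within the control range.

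The difference of miR-302a* at PTD 15, -1.52 ± 1.01 (SE), was the largest of the 3 assays against the 7 controls. It did not pass the test (limma, adjusted p = 0.322, exact permutation p = 0.216). Against the 3 controls of the first run period those of miR-302d (1.24) and miR-302b (0.95) were larger in size than that of miR-302a* (-0.57). The 95% confidence interval of miR-302a* at PTD 15 against the 7 controls was -3.69 to 0.65. It is the only one of the 3 assays at PTD 15 that reaches close to the value of miR-302c*. That value chose the cluster, so this too is a description with no test. At PTD 7 the difference was -0.34, with an interval of -2.24 to 1.57. At PTDs 1, 3, 30 and 120 its differences were -0.61, -0.70, 0.19 and -0.03.

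The call of miR-302a* depended on the arrays set against each other. With the difference of the reverse transcription control wells, described below, as a covariate, its difference at PTD 15 was -2.44 and passed the thresholds. It was smaller, at -0.57 against the 3 controls of the first run period, -0.63 with run period as a block, -0.91 with Cts above 35 set to 35 and -0.80 without replicate 2 of PTD 15, none past the thresholds. Among arrays with a positive difference of these wells, with 2 controls, it was -2.83, -2.94 and -2.76 at PTDs 3, 7 and 15, also past the thresholds. Among arrays with a negative difference, with 5 controls, it was 0.017, 1.93 and -2.13 at PTDs 3, 7 and 15. The 2 controls with a positive difference, at -9.29 and -8.93, were the highest of the 7 for miR-302a*. The sets by sign were chosen after the data were seen, and their negative differences were not of like size, as given below.

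In the order of group means, miR-302c* ran from PTD 30 (-4.56) and PTD 120 (-4.59) through the controls (-5.15) and PTD 1 (-5.27) down to -7.48, -8.66 and -8.89 at PTDs 3, 7 and 15. As a description with no test, the step of 2.20 between PTDs 1 and 3 exceeded the larger SD of the pair (2.04). So did that of 0.562 between PTD 120 and the controls (0.505), and the other steps did not. For miR-302a*, miR-302b and miR-302d no step between neighbouring groups exceeded the larger SD. All pairs of ENU groups were also compared for these 3 assays by the exact permutation test. Over the 45 comparisons the smallest adjusted p was 0.357, and 4 had an unadjusted p below 0.05.

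The distance between miR-302c* and its cluster mates was then taken within each array as a difference in Ct, which uses no reference RNA. In the controls the Ct of miR-302c* minus the mean Ct of the other 3 assays was -5.32 ± 1.39 cycles (SD, n = 7). At PTDs 30 and 120 this difference was -5.61 ± 0.430 and -5.75 ± 0.347 (n = 4 each), and at PTD 1 it was -5.63 ± 1.05 (n = 5). At PTDs 7 and 15 it narrowed to -1.93 ± 0.724 and -1.97 ± 1.85 (n = 5 each), and at PTD 3 it was -3.20 ± 1.91.

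Against miR-302b alone, the difference ranged from -5.07 to -0.761 in the controls, from -0.448 to 0.965 at PTD 7 and from -1.37 to 2.02 at PTD 15. At PTD 7 the star strand of miR-302c thus had about the Ct of miR-302b, and the mice did not overlap the controls, as some did at PTD 15. Against miR-302a* the range was -9.63 to -3.72 in the controls and -3.75 to -2.52 at PTD 7, which overlapped by a small margin, and -7.86 to -1.58 at PTD 15, which overlapped widely. Against miR-302d the range was -8.01 to -4.60 in the controls, -5.85 to -1.46 at PTD 7 and -5.23 to 0.087 at PTD 15, with overlap at both. Since miR-302c* enters each of these differences, they are a description too.

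**Figure D3:**
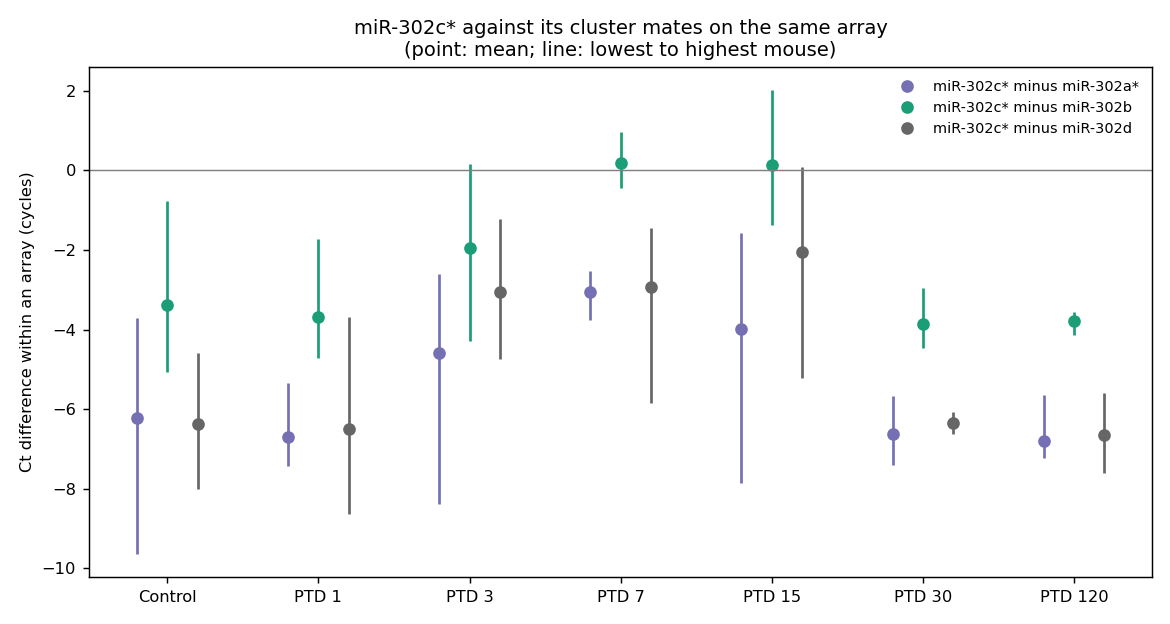
Ct of miR-302c* minus the Ct of each other cluster assay on the same array (cycles), as the group mean (point) with the lowest and highest mouse (line). The difference from miR-302b averaged -3.38 in the controls, 0.184 at PTD 7, 0.128 at PTD 15 and -3.87 at PTD 30.

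Whether the assays of 1 primary transcript deviate together was examined within groups, on the deviation of each mouse from its group mean (35 mice). Over the 6 pairs of cluster assays, the correlation of miR-302c* with the others was r = -0.012 with miR-302a*, 0.196 with miR-302b and 0.196 with miR-302d. Their Spearman rho was 0.092, 0.153 and 0.210. Without PTD 3, where miR-302c* was divided, r was -0.0094, 0.323 and 0.073. These values include the mice of PTDs 3, 7 and 15 and are a description with no test. The relations without miR-302c* were put to a permutation test within groups with 100000 resamples, adjusted over the 10 relations computed.

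The guide strands miR-302b and miR-302d had r = 0.475 (permutation p = 0.0144, adjusted p = 0.0722) and rho = 0.564 (permutation p = 0.00313, adjusted p = 0.0156). Without the 2 mice farthest from the median of miR-302b, r was 0.485. Within the first run period r was 0.381 (22 mice) and within the second 0.127 (10 mice), and neither passed the test. The rho did not pass it either with the controls of the 2 day labels centred apart (permutation test, adjusted p = 0.139) or with the median Ct of each array as the reference (rho 0.432, adjusted p = 0.0682). For miR-302a*, r was 0.352 with miR-302b and 0.355 with miR-302d (permutation test, adjusted p = 0.248 and 0.154), and rho was 0.351 and 0.309 (adjusted p = 0.186 and 0.241).

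The arrays were run in 3 periods by the run dates in the files. The first held 3 controls, 4 of the 5 mice of PTD 1 and all mice of PTDs 3, 7 and 15. The second held PTDs 30 and 120, 2 controls and the remaining mouse of PTD 1, and the third held the other two controls. In the run order of the first period, miR-302c* had a Ct of 26.3 to 27.2 in the first 9 arrays, which ended with replicates 1 and 2 of PTD 3. It had a Ct of 30.3 to 32.3 in the next 13 arrays, which began with replicates 3 to 5 of PTD 3 and held all mice of PTDs 7 and 15. In the second period the first array, PTD 1 replicate 4, had a Ct of 28.2, and the other 10 had 26.2 to 26.9. The third period had 27.3 and 27.9.

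The change in the Ct of miR-302c* thus lay inside the PTD 3 group in the run order, and no array in the 13 was a control. The order of the runs and the PTD cannot be told apart for PTDs 7 and 15. The place of this boundary was set after the values were seen, so no test was made on it. The other 3 assays showed no such step: the Ct was 30.4 to 31.5 before and 29.6 to 32.9 after it for miR-302b, 31.6 to 34.97 and 32.2 to 37.0 for miR-302d, and 31.7 to 35.6 and 33.1 to 38.2 for miR-302a*.

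**Figure D4:**
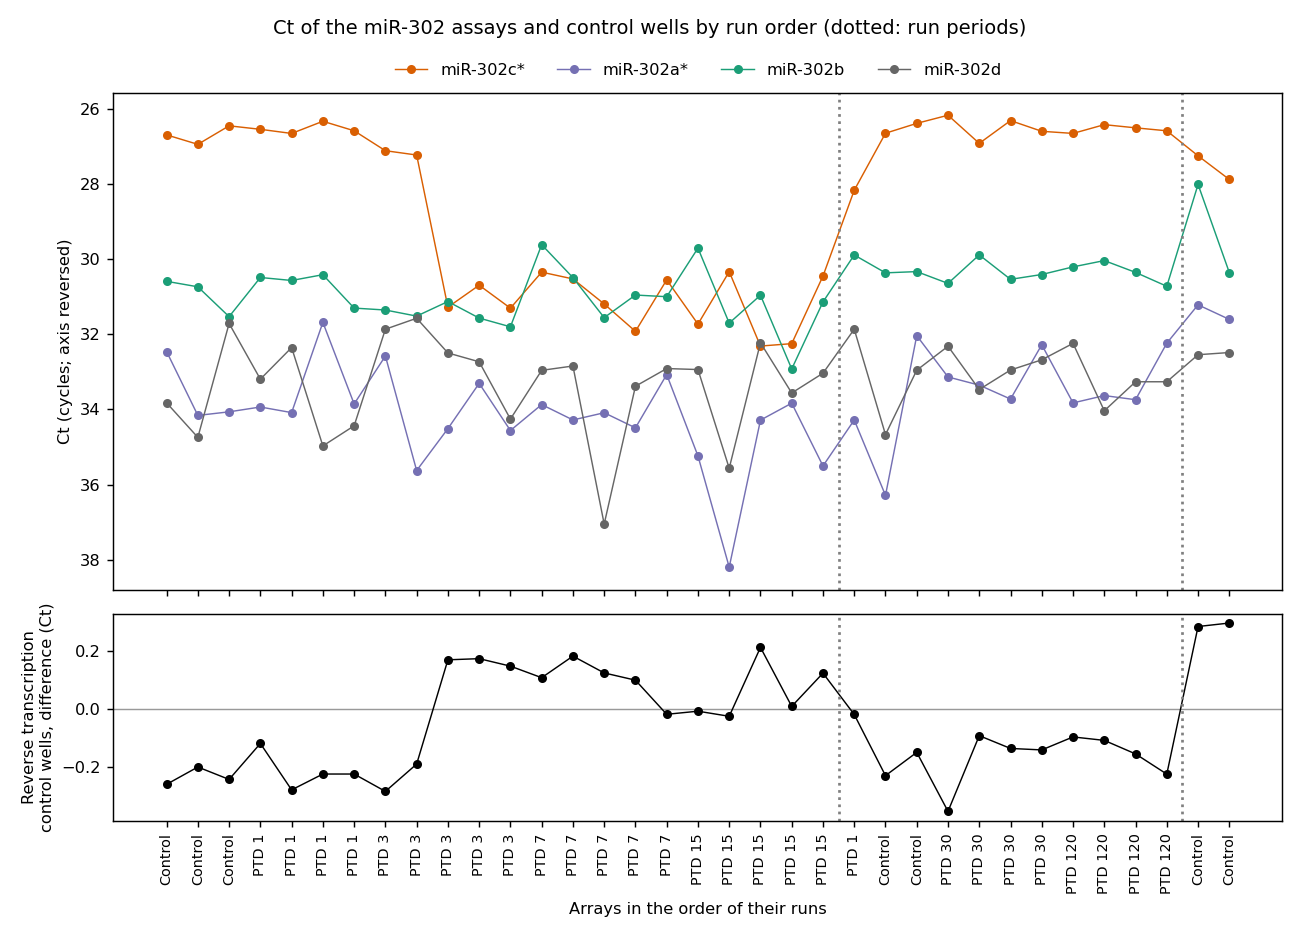
Ct of the 4 cluster assays (upper panel, axis reversed so that more RNA is higher) and the difference of the 2 reverse transcription control wells (lower panel, Ct) on each array in run order, with dotted lines between run periods. miR-302c* changes from 26.3-27.2 to 30.3-32.3 between the second and the third mouse of PTD 3, where the control wells change sign, and returns in the second period.

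Each array has 2 wells for the same reverse transcription control, and the Ct of the first minus that of the second moved with these arrays. The difference was -0.285 to -0.120 in the first 9 arrays and -0.026 to 0.211 in the next 13, of which 10 were positive. It was negative in all 11 arrays of the second period, and positive (0.283 and 0.295) in both controls of the third. The 4 reference RNAs averaged a Ct of 21.0 to 22.1 in the first 9 arrays and 21.4 to 23.5 in the next 13. The part of these differences in the level of miR-302c* was not tested.

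The 2 controls with a positive difference had miR-302c* at -4.97 and -5.57, within the range of the other 5 controls (-5.60 to -4.22). Among the arrays with a positive difference alone, miR-302c* differed from these controls by -3.64 at PTD 3 (n = 3 against 2), -3.60 at PTD 7 (n = 4) and -3.74 at PTD 15 (n = 3). Among the arrays with a negative difference, it differed by -0.23 at PTD 3 (n = 2 against 5), -2.72 at PTD 7 (n = 1) and -3.62 at PTD 15 (n = 2). The control wells of these arrays differed by -0.026 to -0.0085 at PTDs 7 and 15. The range was -0.285 to -0.191 at PTD 3 and -0.261 to -0.151 in the 5 controls. The sign thus does not match the arrays on these wells. Against the 3 controls of the first run period only, miR-302c* differed by -2.02, -3.20 and -3.43 at PTDs 3, 7 and 15. The sets by sign were chosen after the data were seen, and some hold only 1 or 2 mice.

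Within groups, the difference of these wells was also set against the 4 assays. With miR-302b, r was 0.557 (permutation p = 0.00119, adjusted p = 0.0119) and rho was 0.547 (permutation p = 9.0e-04, adjusted p = 0.0090). Without the 2 mice farthest in the difference of the wells r was 0.334, and it was 0.199 within the first run period and 0.598 within the second, neither of which passed the test. With the controls of the 2 day labels centred apart, r was 0.429 (permutation test, adjusted p = 0.0792) and rho 0.452 (adjusted p = 0.0777). With miR-302c*, as a description with no test, r was -0.422 and rho -0.410. With the median Ct of each array as the reference they were -0.527 and -0.548. With the 4 reference RNAs, r was -0.115 without PTD 3. Values for miR-302a* (r = 0.419, rho = 0.264) and miR-302d (r = 0.256, rho = 0.219) did not pass the permutation test (adjusted p = 0.154 and 0.248 for r, and 0.336 for both rho).

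The assays outside the cluster with the pattern most like each member were found by Pearson's r of -ΔCt over the 35 arrays, among the 372 other miRNA assays, as a description. For miR-302c* these were miR-681 (r = 0.931), miR-684 (r = 0.923, 34 arrays) and miR-883b-5p (r = 0.913). All 3 showed the division of PTD 3 as well. miR-681 was at -7.91 and -7.83 in replicates 1 and 2 and between -11.9 and -10.7 in replicates 3 to 5. The differences of miR-681 from the controls were -1.77, -3.29 and -3.20 at PTDs 3, 7 and 15, those of miR-684 -3.42, -4.90 and -4.23, and those of miR-883b-5p -2.29, -4.04 and -2.88. The 3 neighbours were lower in the 2 controls of the third run period than in any of the first 9 arrays. In these controls miR-681 was at -9.83 and -9.39, against -8.52 to -7.00 in the first 9 arrays and -13.1 to -10.0 in the next 13. miR-684 was at -12.1 and -10.5, against -9.35 to -5.47 and -15.0 to -10.8, and miR-883b-5p at -11.7 and -10.6, against -9.33 to -6.95 and -13.7 to -9.83. Of these controls, 1 was within the range of the 13 arrays for miR-684, and both for miR-883b-5p. miR-302c* was within its range in the first 9 arrays, -5.61 to -4.53, in both controls. PTD 1 replicate 4, run in the second period, was at -10.3 for miR-681, -9.61 for miR-684 and -9.88 for miR-883b-5p. The other 10 arrays of that period reached down only to -7.25, -8.01 and -8.95.

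The highest r of the other members was lower. It was 0.702 for miR-302b (with miR-761), 0.576 for miR-302a* (with miR-135a) and 0.530 for miR-302d (with miR-683). Each of these r includes the differences between groups.

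The guide seed of miR-302b and miR-302d was carried outside the cluster by 2 other assays of the array, miR-291a-3p and miR-295 of the miR-290 cluster. None was a DEM at any PTD. The lowest value was that of miR-291a-3p at PTD 7, -1.88 ± 0.68 (log2, SE; limma, adjusted p = 0.109), with -1.19 ± 0.66 at PTD 15. miR-295 was at 0.27 and -0.34 at these PTDs. The 4 assays with this seed thus lay on both sides of 0 at PTD 7.

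The miR-290 cluster had 9 assays, with control mean Cts of 31.2 to 34.8. At PTDs 1, 3, 30 and 120 none of the 9 was a DEM. At PTDs 7 and 15 1 of 9 was called, miR-292-5p, a share close to the 9.84% and 11.4% of all assays. Its difference from the controls was -2.20 ± 0.42 (log2, SE; limma, adjusted p = 0.0049) and -2.32 ± 0.47 (adjusted p = 0.0090). The median of the 9 was 0.27 at PTD 7 and -0.76 at PTD 15, against 0.19 and 0.36 over all assays. miR-292-5p had a Ct of 31.4 to 32.7 in the first 9 arrays of the run order and 34.2 to 36.5 in the next 13. In the second period it had 34.7 in PTD 1 replicate 4 and 31.3 to 32.0 in the other 10 arrays. The part of the run order in its difference was not tested. Of the other assays of this cluster for a 5′ arm, miR-290-5p was at 0.76 and 1.82 at PTDs 7 and 15, miR-294* at 1.26 and 1.64, and miR-291a-5p at -0.71 and -1.04, none of them called.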

How the data were processed

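The authors enriched small RNA from liver, converted it into cDNA and ran SYBR Green PCR arrays of 384 wells for 40 cycles. They deposited the Ct of every well, a log2 measure without normalization, as calculated by the instrument software with a threshold of 0.15. Groups were taken from the labels, and well names from the study's list of wells. By the labels 3 controls belong to day 1 and 4 to day 30, and by the methods the numbers are the other way round, so all 7 were pooled. For replicate 3 at PTD 3 the deposited Ct values are not those of the study's list, and the deposited values were used. The 15 Undetermined wells were left out as missing.

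Each ENU group was compared with the 7 controls on -ΔCt of all 376 miRNA assays with limma 3.58.1 (R 4.3.3), 1 fit per PTD without covariates, two-sided, with Benjamini-Hochberg adjustment over all assays. The values of miR-302c* at PTDs 3, 7 and 15, which chose the cluster, are given with no test of a difference. They were left out of the count of cluster assays called. They remained in the fits and the adjustment over all 376 assays, and in the shares given for all assays. Correlations of miR-302c* within groups use them and are given without a p, though they count among the 10 relations over which p was adjusted. Exact permutation tests were two-sided (792 or 330 splits). Both procedures were tested on simulated data. Python 3.11.15, numpy 2.4.6, pandas 2.3.3, scipy 1.17.1 and matplotlib 3.10.9 were used for the rest. The 4 members, the marker lists and the miR-290 list were chosen with earlier results of these data known. Named assays were the members, the miR-290 list, assays with the guide seed, the 3 assays most correlated with each member, markers, and reference and control wells. Alternatives were other reference RNAs, the treatment of Undetermined and late wells, a filter at a Ct of 30, other tests, either set of controls, run periods, the control wells, replicate numbers as a block and leaving out each mouse.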

Additional observations from a re-analysis of the deposited data

Results flagged for a closer look

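In 1 of the 28 groups examined (4 assays in 7 groups), a mouse lay far from the others of its group. miR-302d in replicate 3 of PTD 7 was at -14.6 (-ΔCt), against -11.4 to -10.2 in the other 4 mice, a gap of 0.720 of the range of the group. About 1 in 20 groups would be marked in this way by chance. Without this mouse the difference of miR-302d at PTD 7 was 0.72 in place of -0.05.

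For miR-302c*, every mouse of PTDs 7 and 15 lay below the control mean and every mouse of PTDs 30 and 120 above it. The difference in mean -ΔCt was -4.10 between PTDs 7 and 30, -4.07 between PTDs 7 and 120, -4.33 between PTDs 15 and 30, and -4.30 between PTDs 15 and 120. These differences were not tested. PTDs 7 and 15 were run in the first period and PTDs 30 and 120 in the second, so run period and PTD cannot be told apart in them.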

How the results depend on the processing

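The differences of miR-302c*, which chose the cluster, ranged over the alternatives from -3.64 to -0.23 at PTD 3, from -3.74 to -2.72 at PTD 7 and from -4.16 to -3.43 at PTD 15. Several alternatives (another test or call rule, the late or Undetermined wells, the filter) leave its difference as it is by construction, and nothing is read from these ranges. Leaving out 1 mouse at a time gave -2.92 to -1.81 at PTD 3, the latter without replicate 3.

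The count of cluster assays called, with miR-302c* left out at PTDs 3, 7 and 15, was 0 at every PTD by limma against the 7 controls, and 0 when any 1 mouse was left out. With the controls of day 30 it was 1 at PTD 3 (miR-302b, -1.78), and with those of day 1 it was 1 at PTD 30 (miR-302b, 1.28). With the control wells as a covariate it was 1 at PTD 15 (miR-302a*, -2.44), and among arrays with a positive difference of these wells 1 at each of PTDs 3, 7 and 15 (miR-302a*, -2.83, -2.94 and -2.76). Under the other alternatives it stayed at 0. Over 187 values each for the 6 PTDs and all settings, miR-302a* was called 4 times, miR-302b 2 times and miR-302d 0 times (lowest p 0.0213).

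Uncalled differences of small size changed sign, and the cause was not tested. With the median Ct of each array as the reference, they were 0.25 for miR-302c* and 0.12 for miR-302d at PTD 1, 0.25 for miR-302d at PTD 7, -0.22 for miR-302a* and -0.31 for miR-302b at PTD 30, and -0.26 for miR-302b and -0.13 for miR-302d at PTD 120. Without snoRNA202, miR-302d was 0.0049 at PTD 7 and miR-302a* 0.085 at PTD 120. Without snoRNA142, miR-302b was -0.046 at PTD 30. With Cts above 35 set to 35, miR-302d was 0.36 at PTD 7, and miR-302a* at PTD 15 kept its sign at -0.91.

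Against the controls of day 1, the values at PTD 1 were 0.34 for miR-302a*, 0.76 for miR-302b, 0.18 for miR-302c* and 0.41 for miR-302d. miR-302a* was 0.25 at PTD 3, 0.61 at PTD 7 and 0.92 at PTD 120, miR-302b 0.29 at PTD 3 and 0.95 at PTD 15, and miR-302d 0.61 at PTD 7. Against the controls of day 30, miR-302b was -0.83 at PTD 7, -0.79 at PTD 30 and -0.73 at PTD 120, miR-302a* -0.52 at PTD 30 and miR-302d -0.21 at PTD 120. Without a change of sign or a call, the controls of day 1 gave miR-302a* 1.14 at PTD 30, miR-302b 1.34 at PTD 120 and miR-302d 1.27 and 0.94 at PTDs 30 and 120. Those of day 30 gave miR-302a* -1.32, -1.41, -1.05, -2.23 and -0.74 at PTDs 1, 3, 7, 15 and 120, and miR-302b -1.31 and -1.12 at PTDs 1 and 15.

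With run period as a block in the fit of all groups, miR-302a* was 0.29, 0.20, 0.55 and 0.89 at PTDs 1, 3, 7 and 120. miR-302b was 0.51, 0.31, 0.97, -0.065 and -0.011 at PTDs 1, 3, 15, 30 and 120, and miR-302d was 0.52 and 0.96 at PTDs 1 and 7. Within the run period only, miR-302a* was 0.39, 0.25, 0.61 and 0.81 at PTDs 1, 3, 7 and 120, miR-302b 0.47, 0.29, 0.95 and -0.032 at PTDs 1, 3, 15 and 30, miR-302c* 0.38 and -0.020 at PTDs 1 and 120, and miR-302d 0.61 at PTD 7. With no change of sign and no call, miR-302b at PTD 7 was 1.24 within the run period and 1.26 with the block, miR-302d was 1.65 and 2.00 at PTD 3 and 1.24 and 1.59 at PTD 15, and miR-302a* was -0.57 and -0.63 at PTD 15 and 1.03 and 1.11 at PTD 30. The count of all assays called at PTDs 3, 7 and 15 was 30, 124 and 152 within the run period and 56, 114 and 136 with the block, in place of 8, 37 and 43. With the median Ct as reference it was 18 and 68 at PTDs 3 and 7, with the controls of day 1 it was 141 and 105 at PTDs 30 and 120 in place of 6 and 5, with those of day 30 it was 49 and 23 at PTDs 1 and 3 in place of 5 and 8, with the filter at a mean Ct of 30 it was 11 and 24 at PTDs 7 and 15, and with the replicate block 5 and 27 at PTDs 3 and 15.

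With the control wells as a covariate, miR-302b was 0.084 and -0.66 at PTDs 1 and 7, miR-302d 0.20 and -0.012 at PTDs 1 and 15, and miR-302a* 0.43 at PTD 120. With no change of sign or call, miR-302a* was -1.28 and 0.83 at PTDs 7 and 30 and miR-302b -0.85 at PTD 15. Among arrays with a negative difference of these wells, an alternative chosen after seeing the data, miR-302a* was 0.29, 0.017, 1.93 and 0.87 at PTDs 1, 3, 7 and 120, miR-302b 0.24 and 0.79 at PTDs 1 and 15, miR-302d 0.28 and 1.87 at PTDs 1 and 7, and miR-302c* -0.23 and -2.72 at PTDs 3 and 7. Among those with a positive difference, miR-302d was -0.76, -1.71 and -0.062 at PTDs 3, 7 and 15 and miR-302b -1.64 at PTD 7. Without a change of sign or a call, miR-302d was 2.18 at PTD 3 and miR-302a* -2.13 and 1.09 at PTDs 15 and 30 among the former, and miR-302b -2.43 and -2.12 at PTDs 3 and 15 among the latter.

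The replicate numbers were not taken to pair the mice. Of the 42 pairs of same-numbered mice (an ENU-treated mouse and a control), 31 had a correlation of their deviations of at most 0.1 (from -0.301 to 0.519). All 4 pairs of PTD 3 with the controls of day 30 were above it (0.184 to 0.488), though not all of those with the controls of day 1 (-0.294 to 0.315). With the replicate block, miR-302b was -0.028 at PTD 7, and no other tested result of the cluster changed its call or direction.

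Leaving out 1 mouse at a time moved miR-302a* at PTD 15 to between -2.05 and -0.80 and changed the sign of these values. miR-302a* ranged from -0.87 to 0.069 at PTD 7, -0.34 to 0.60 at PTD 30 and -0.56 to 0.38 at PTD 120. miR-302b ranged from -0.71 to 0.048 at PTD 1, -0.23 to 0.52 at PTD 7, -0.55 to 0.28 at PTD 15, -0.19 to 0.57 at PTD 30 and -0.13 to 0.62 at PTD 120. miR-302c* ranged from -0.31 to 0.074 at PTD 1, and miR-302d from -0.75 to 0.26 at PTD 1, -0.40 to 0.72 at PTD 7 and -0.024 to 0.51 at PTD 120.

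Of the correlations, that of miR-302b and miR-302c* was -0.039 with the median Ct as reference, and that of miR-302a* and miR-302c* 0.165 with Cts above 35 set to 35 and 0.269 in the second run period. That of the control wells and miR-302d was -0.064 in the first run period and -0.013 in the second. That of the control wells and miR-302c*, with no test, was -0.527 with the median Ct as reference.

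The 95% confidence intervals of miR-302a*, miR-302b and miR-302d were 2.66 to 4.34 log2 units wide, wider than a 2-fold change in both directions. With a filter at a mean Ct of 30 only miR-302c* was left of the cluster.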
